A study of Mus musculus with 4 samples.

Results

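The genes of the mouse major histocompatibility complex (MHC) and of the machinery that loads its molecules with peptide were followed across 4 RNA sequencing libraries of sorted hippocampal cells. Members were all gene symbols that begin with H2- together with B2m, Tap1, Tap2, Tapbp, Cd74 and Ciita, which gave 50 of the 23334 genes in the table. Of these, 36 belong to the class I pathway, 12 to the class II pathway, and 2, H2-Ke2 and H2-Ke6, carry the H2 prefix without coding for an MHC chain. The cells came from Vegfr3::YFP reporter mice on a C57BL/6 background, in which yellow fluorescent protein (YFP) reports Vegfr3 (gene Flt4), which binds the growth factor VEGF-C. YFP-positive cells, labelled as neural stem cells of the subgranular zone, and YFP-negative cells, labelled as neurons of that zone, were sorted from 2 groups of 16 mice. They were held in culture for 18 h with VEGF-C at 50 ng/ml or without it, and material from both mouse groups was pooled for each condition. Cells given VEGF-C are called treated below and cells without it untreated. The 4 groups were therefore treated and untreated YFP-positive cells and treated and untreated YFP-negative cells, all from the reporter line and each with 1 library. The age and sex of the mice are not given in the sources used here.

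Class I molecules consist of a heavy chain and the small subunit beta-2 microglobulin (B2m), and they show peptides of the cell's own proteins to CD8 T cells and natural killer cells. The peptides enter the endoplasmic reticulum through the transporter Tap1-Tap2 and are loaded with the help of tapasin (Tapbp). Class II molecules pair an alpha with a beta chain, travel with the invariant chain (Cd74), exchange its fragment for peptide with the help of H2-DM, and depend on the transactivator Ciita. In healthy brain, MHC levels are known to be low in neurons and to be raised in activated microglia and by interferon gamma.

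The libraries differed in depth and in the number of genes they detected, and these differences crossed both comparisons. The implied number of fragments, which are read pairs derived from the normalized counts, was 60326300 in treated YFP-positive cells, 8561945 in untreated YFP-positive cells, 8390506 in treated YFP-negative cells and 16275373 in untreated YFP-negative cells. Genes above 0 made up 58.0%, 41.4%, 41.0% and 56.3% of all genes in these libraries. Treated YFP-positive cells and untreated YFP-negative cells are therefore called the gene-rich libraries below, and the other 2 the sparse libraries. Hnrnpa1, an RNA-binding protein gene that every cell uses, was listed at 0 in treated YFP-negative cells and stood at 421 FPKM (fragments scaled to transcript length and library size) in the treated YFP-positive library, so a value of 0 can be a failed estimate and is described here only as listed at 0. With 1 library per group, no replicate checks any difference, and no test was run. Intervals on levels and folds are 95% exact intervals that treat the implied fragments as counts, and they cover counting error only. The table did not pass a stricter check for whole reads, so fragment numbers and intervals are approximate.

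The labelled cell types were compared with their markers. Summed over 8 astrocyte markers, the level was 1079 FPKM in treated YFP-positive cells, 1259 in untreated YFP-positive cells, 62.0 FPKM in treated YFP-negative cells and 62.8 FPKM in untreated YFP-negative cells. The sum over 8 neural stem cell markers was 542, 807, 233 and 133 FPKM in the same libraries. Some single markers ran against these sums. S100b, of the astrocyte list, stood at 26.4, 34.2, 61.0 and 44.7 FPKM. The stem cell marker Nes stood at 43.2, 39.0, 78.0 and 82.3 FPKM. At the 2-fold mark used below, 7 of 8 astrocyte markers were higher in YFP-positive cells in both comparisons. Of the stem cell markers, 6 of 8 were higher and 2 lower without VEGF-C, and 4 of 6 measured were higher with it. The YFP-negative cells, labelled as neurons, went against their label, because 8 oligodendrocyte markers summed to 8836 FPKM with VEGF-C and 7362 FPKM without it, while 8 neuron markers summed to 72.2 and 69.3 FPKM. The same neuron markers summed to 412 FPKM in treated YFP-positive cells and 351 FPKM in untreated YFP-positive cells. Tubb3 supplied 242 and 166 FPKM of these 2 sums, and Neurod1 88.2 and 135 FPKM. Snap25 ran the other way, at 20.4 FPKM in YFP-positive against 39.9 in YFP-negative cells with VEGF-C, and 6.28 against 21.1 without it. With VEGF-C, Dcx did too, at 8.43 against 20.9 FPKM. At the 2-fold mark, 3 of 6 measured neuron markers stood higher in YFP-positive cells without VEGF-C and 1 lower. With VEGF-C, 5 of 7 stood higher and 1 lower. Flt4 itself stood at 2.01 FPKM in treated YFP-positive cells, was listed at 0 in untreated YFP-positive cells, and stood at 0.348 FPKM in treated and 0.0584 FPKM in untreated YFP-negative cells. The populations are named below by their YFP sort.

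Of the 50 members, 42 lie within 3.57 Mb of chromosome 17, B2m lies at chr2:122147686-122153083 (GENCODE M21, GRCm38), and 5 symbols were not matched there. These were H2-L, H2-Q8, H2-Q9, H2-T9 and H2-Ke2. The start regions of 6 members are shown because these genes carry the results below: the class I subunit with the highest level, both classical heavy chains, the nonclassical chain whose pattern differed from theirs, and 1 alpha and 1 beta chain of class II. Each is the RefSeq window of 300 bases on GRCm38.p6, with 250 bases before and 50 after the transcript start, read along the gene's strand. The windows are chr2:122147437-122147736 (plus strand) for B2m, chr17:34000298-34000597 (minus) for H2-K1, chr17:35262844-35263143 (plus) for H2-D1, chr17:36032652-36032951 (minus) for H2-T23, chr17:34287774-34288073 (minus) for H2-Aa and chr17:34305617-34305916 (plus) for H2-Eb1. Capitals mark matches on either strand to CCAAT (the Y box), TGACG (the core of the X2 box), GAAA repeated after 2 free bases (the core of the interferon-stimulated element) and the kappa B motif, and adjoining matches can overlap.
B2m: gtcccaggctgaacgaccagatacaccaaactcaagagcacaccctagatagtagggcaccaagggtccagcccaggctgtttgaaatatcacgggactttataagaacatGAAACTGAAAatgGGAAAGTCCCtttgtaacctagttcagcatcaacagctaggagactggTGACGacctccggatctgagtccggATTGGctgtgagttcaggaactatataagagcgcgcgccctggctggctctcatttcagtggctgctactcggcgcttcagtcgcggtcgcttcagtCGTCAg
H2-K1: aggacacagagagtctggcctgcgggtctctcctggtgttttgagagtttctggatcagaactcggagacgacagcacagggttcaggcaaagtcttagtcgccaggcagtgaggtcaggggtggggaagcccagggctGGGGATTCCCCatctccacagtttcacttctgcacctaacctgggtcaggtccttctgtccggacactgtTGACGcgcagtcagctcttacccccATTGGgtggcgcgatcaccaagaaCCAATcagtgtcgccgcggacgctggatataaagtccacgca
H2-D1: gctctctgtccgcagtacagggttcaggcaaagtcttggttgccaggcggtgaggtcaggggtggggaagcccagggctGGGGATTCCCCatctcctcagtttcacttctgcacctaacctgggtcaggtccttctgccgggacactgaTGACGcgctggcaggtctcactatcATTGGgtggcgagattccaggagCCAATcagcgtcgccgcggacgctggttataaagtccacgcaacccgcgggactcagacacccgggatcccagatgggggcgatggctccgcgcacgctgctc
H2-T23: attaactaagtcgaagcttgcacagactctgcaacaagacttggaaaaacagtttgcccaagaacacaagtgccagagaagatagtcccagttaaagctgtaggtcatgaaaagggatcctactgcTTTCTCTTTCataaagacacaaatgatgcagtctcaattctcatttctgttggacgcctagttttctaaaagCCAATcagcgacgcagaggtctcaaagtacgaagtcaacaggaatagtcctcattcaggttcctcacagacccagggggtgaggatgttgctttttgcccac
H2-Aa: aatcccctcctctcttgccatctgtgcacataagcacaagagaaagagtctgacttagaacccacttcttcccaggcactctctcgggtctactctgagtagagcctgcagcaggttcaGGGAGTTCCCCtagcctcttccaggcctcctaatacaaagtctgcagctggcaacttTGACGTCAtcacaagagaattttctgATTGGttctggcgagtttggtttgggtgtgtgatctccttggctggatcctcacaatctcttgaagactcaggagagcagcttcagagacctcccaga
H2-Eb1: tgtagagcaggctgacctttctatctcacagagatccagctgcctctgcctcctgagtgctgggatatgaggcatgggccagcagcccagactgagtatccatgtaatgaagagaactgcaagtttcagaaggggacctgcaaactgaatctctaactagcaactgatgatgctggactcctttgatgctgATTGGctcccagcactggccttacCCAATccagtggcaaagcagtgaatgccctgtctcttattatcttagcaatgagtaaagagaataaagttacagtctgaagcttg

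CCAAT was found in all 6 windows. It lies at -53 to -49 in B2m, at -16 to -12 and 8 to 12 in H2-K1, and at -52 to -48 in H2-T23, counted from the transcript start. Windows were found for 34 members, and CCAAT was present in 22 of 25 class I genes and 8 of 8 class II genes, against 37.4% of all 32851 windows of that length. Members are counted by gene, positive if any of its windows matches, whereas the share of all is per window, over 27025 genes. This unlike unit favours the members slightly, as for H2-DMa, whose first window held no CCAAT and whose further window did. TGACG was present in 13 of the class I genes and 1 of the class II genes, against 20.8% of all windows. The kappa B motif was present in 9 class I genes and 1 class II gene, against 8.46%, and the repeated GAAA in 3 class I genes and no class II gene, against 3.44%. A further search for TTCNNNGAA, the core of the interferon gamma-activated site, found 2 class I genes and 1 class II gene, against 8.3%. These matches describe the letters in the windows and are not evidence of binding.

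A level of at least 1 FPKM was reached in at least 1 library by 23 of the 50 members, 15 of class I, 6 of class II and both H2-Ke genes, and by 12769 of all 23334 genes. Another 18 members were listed at 0 in all 4 libraries, 12 of class I and 6 of class II. That is 36% of the members, near the 35.3% of all genes. The remaining 9, all of class I, were above 0 somewhere but reached at most 0.981 FPKM, the level of H2-Q7 in untreated YFP-negative cells. The class II members at 0 throughout were Ciita, H2-Eb2, both beta chains of H2-DM (H2-DMb1 and H2-DMb2), and both chains of its inhibitor H2-DO (H2-Oa and H2-Ob). All 6 H2-M10 genes, known from the vomeronasal organ, were also at 0 throughout.

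Members were detected unevenly across the libraries. Members above 0 numbered 26 in treated YFP-positive cells, 13 in untreated YFP-positive cells, 14 in treated YFP-negative cells and 29 in untreated YFP-negative cells, that is 52%, 26%, 28% and 58% of the members. These shares lie near those of all genes in the same libraries in the gene-rich pair and below them in the sparse pair. Of the 23 measured members, 9 (39.1%) were above 0 in a gene-rich library and listed at 0 in both sparse ones, against 15% of 12769 measured genes. They were H2-L, H2-K2, H2-T9, Tap1, Tap2, H2-Ab1, H2-Ea-ps, H2-Eb1 and H2-DMa, whose highest levels ranged from 1.29 FPKM for H2-L to 13.6 FPKM for H2-Ab1. No member showed the reverse pattern, which 1.09% of genes did. For each of these 9, VEGF-C treatment and the kind of library cannot be told apart within a population.

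**Figure D1:**
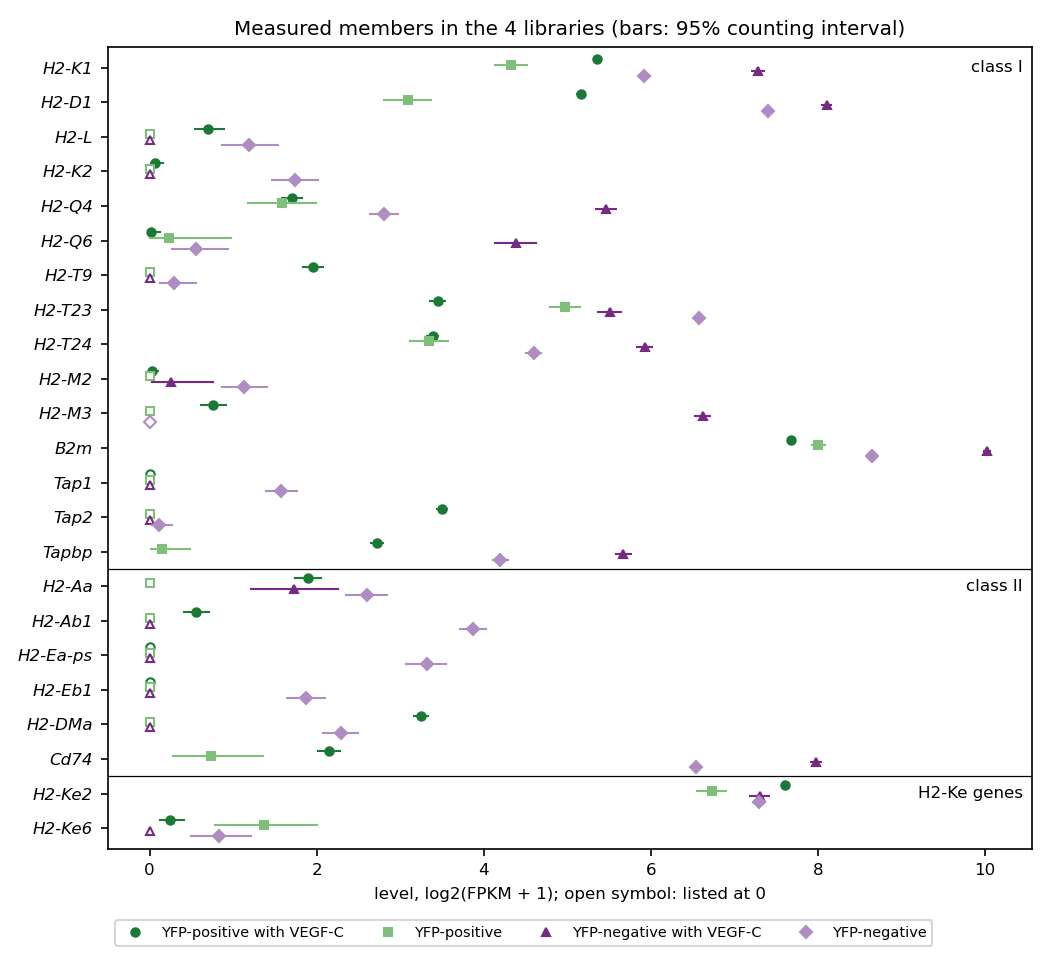
Level of each of the 23 measured members in the 4 libraries, as log2(FPKM + 1) on the horizontal axis, with 95% counting intervals as bars and open symbols for values listed at 0. Most class I members and Cd74 lie farther right in the YFP-negative libraries, while H2-Ke2 lies between 105 and 194 FPKM in all 4.

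B2m had the highest level of all members in every library. It stood at 204 FPKM (95% counting interval 200 to 208) in treated YFP-positive cells, 256 FPKM (242 to 270) in untreated YFP-positive cells, 1037 FPKM (1010 to 1065) in treated YFP-negative cells and 400 FPKM (389 to 410) in untreated YFP-negative cells. The intervals do not overlap, so the order of these 4 libraries in FPKM exceeds counting error, and B2m was among the top 1.18% to 5.21% of genes above 0 in each. The difference between the untreated libraries depended on the scaling, as given below. The classical heavy chains H2-K1 and H2-D1, which present peptides to CD8 T cells, came next among class I members in both treated libraries, while in both untreated ones H2-T23 exceeded at least 1 of them. H2-K1 (chr17:33996017-34000347) stood at 40.1 FPKM in treated YFP-positive cells, 19.1 in untreated YFP-positive cells, 155 in treated YFP-negative cells and 59.5 in untreated YFP-negative cells. H2-D1 (chr17:35262730-35267499) stood at 34.7, 7.54, 274 and 168 FPKM in the same order of libraries. Both were lowest in untreated YFP-positive cells and lower in each YFP-positive library than in each YFP-negative one. The balance of the 2 classical chains differed between the sorts, with an H2-D1 level of 0.866 and 0.394 times that of H2-K1 in YFP-positive cells with and without VEGF-C, and 1.77 and 2.83 times in YFP-negative cells with and without it.

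Of the nonclassical heavy chains, 4 exceeded 40 FPKM in a library. H2-T23 codes for the heavy chain of Qa-1, which shows leader peptides of other class I chains to natural killer cells, and it stood at 9.93 FPKM (9.28 to 10.62) in treated YFP-positive cells, 30.4 FPKM (26.8 to 34.5) in untreated YFP-positive cells, 44.5 FPKM (40.2 to 49.1) in treated YFP-negative cells and 94.1 FPKM (90.3 to 98.1) in untreated YFP-negative cells. It differed from the classical chains in being lower in the VEGF-C library of both sorts. H2-T24 stood at 9.46 FPKM in treated YFP-positive cells, 9.16 in untreated YFP-positive cells, 59.8 in treated YFP-negative cells and 23.2 in untreated YFP-negative cells. H2-Q4 stood at 2.26, 1.99, 43.0 and 6.00 FPKM in these libraries. For both genes the YFP-positive libraries did not differ beyond their counting intervals, and treated YFP-negative cells were highest. H2-M3, which presents N-formyl peptides such as those of bacteria and mitochondria, had 97.5 FPKM from 937 fragments in treated YFP-negative cells and 0.695 FPKM in treated YFP-positive cells, and was listed at 0 in both untreated libraries. In untreated YFP-negative cells, 3 fragments of H2-M3 would have given 0.112 FPKM.

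The other measured heavy chains were low or seen in few libraries. H2-Q6, of the Qa-2 family, had 0.0156, 0.172, 19.9 and 0.466 FPKM in treated YFP-positive cells, untreated YFP-positive cells, treated YFP-negative cells and untreated YFP-negative cells, the high value resting on 124 fragments. H2-T9 had 2.89 FPKM in treated YFP-positive cells and 0.225 in untreated YFP-negative cells. H2-K2, annotated as a transcribed pseudogene, had 0.0458 FPKM in treated YFP-positive cells and 2.34 in untreated YFP-negative cells. These 2 genes were listed at 0 in both sparse libraries, as was H2-L, a further classical chain of other mouse strains, with 0.629 FPKM in treated YFP-positive cells and 1.29 in untreated YFP-negative cells. H2-M2 had 0.0195 FPKM in treated YFP-positive cells, 0.192 in treated YFP-negative cells and 1.18 in untreated YFP-negative cells, and was listed at 0 in untreated YFP-positive cells.

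Near-identical copies limit some of these values. The fragments of H2-D1 and H2-L were not whole numbers in untreated YFP-negative cells, with 5567.54 and 24.46, but summed to 5592.00, and in treated YFP-positive cells they were 4107.25 and 42.75 and summed to 4150.00. The same held for H2-Q6 with H2-Q8 and for H2-T9 with H2-T22, so each of these pairs shared reads that were divided between its members. In the GENCODE M21 transcripts, 75-base stretches shared with another gene on the same strand made up 3.1% of H2-K1, 5.4% of H2-D1, 5.91% of H2-T23, 7.02% of H2-Q4, 17.9% of H2-Q6 and 65.5% of H2-Ke6, while B2m, Cd74, H2-M3 and the measured A and E chains of class II had none. H2-L, H2-Q8 and H2-T9 were not found by name among these transcripts, so the shares of H2-D1 and H2-Q6 can be too low. Stretches found in antisense transcripts, which unstranded mapping does not separate, made up 15.8% of H2-Q4, 17.5% of Tapbp, 8.27% of Tap2 and 7.46% of H2-DMa. B2m, Cd74, H2-K1 and H2-M3 had none of these.

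**Figure D2:**
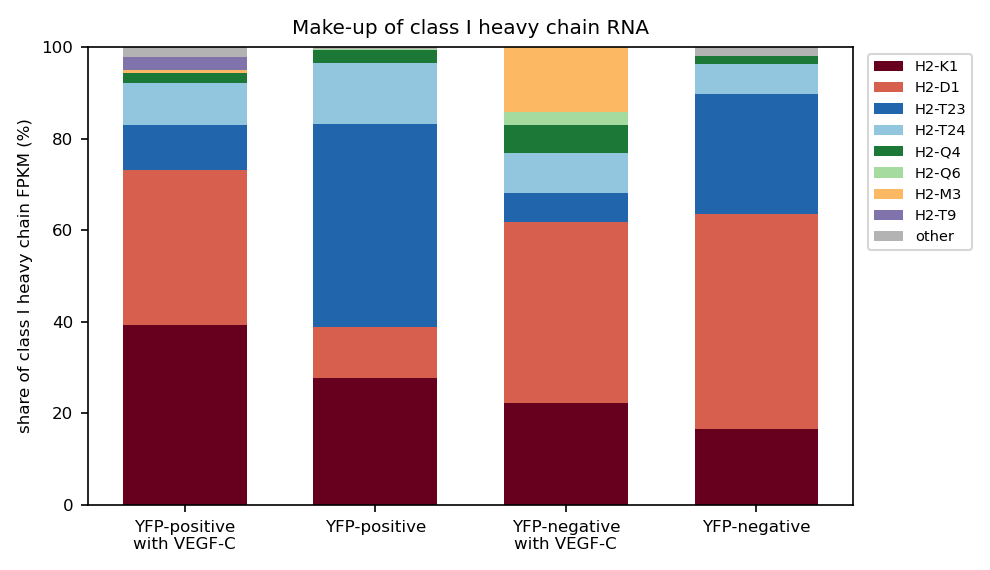
Share of the summed class I heavy chain FPKM (vertical axis, percent) held by each heavy chain in the 4 libraries (bars). H2-T23 holds 44.3% in untreated YFP-positive cells, H2-D1 46.9% in untreated YFP-negative cells, and H2-M3 14.1% in treated YFP-negative cells.

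Summed over all class I heavy chains, the level was 102 FPKM in treated YFP-positive cells, 68.7 in untreated YFP-positive cells, 693 in treated YFP-negative cells and 358 in untreated YFP-negative cells. The classical chains held 73.8%, 38.8%, 61.8% and 63.9% of these sums. The B2m level was 1.99, 3.72, 1.496 and 1.12 times the heavy chain sum in the same libraries. YFP-positive cells thus had less heavy chain RNA relative to B2m than YFP-negative cells, with or without VEGF-C. In the plot of heavy chain shares, untreated YFP-positive cells stand apart through the 44.3% held by H2-T23, beside 27.8% for H2-K1 and 10.97% for H2-D1.

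Of the peptide loading genes, Tapbp was highest in treated and next highest in untreated YFP-negative cells, as B2m was, whereas Tap1 and Tap2 were not. Tapbp (chr17:33915899-33929292), which bridges class I molecules to the peptide transporter, stood at 5.60 FPKM in treated YFP-positive cells, 0.109 in untreated YFP-positive cells, 49.9 in treated YFP-negative cells and 17.4 in untreated YFP-negative cells. Tap1 was listed at 0 in 3 libraries and stood at 1.98 FPKM from 113 fragments in untreated YFP-negative cells. Tap2, the other subunit of the same transporter, stood at 10.31 FPKM from 1805 fragments in treated YFP-positive cells and 0.0815 FPKM in untreated YFP-negative cells, and was listed at 0 in the sparse libraries. No library thus had both transporter subunits at 1 FPKM or more.

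Class II RNA was led by Cd74, whose gene lies on chromosome 18, except in treated YFP-positive cells, where H2-DMa was higher. Cd74 stood at 3.42 FPKM (3.03 to 3.86) in treated YFP-positive cells, 0.665 FPKM (0.216 to 1.55, from 5 fragments) in untreated YFP-positive cells, 251 FPKM (241 to 262) in treated YFP-negative cells and 92.1 FPKM (88.2 to 96.1) in untreated YFP-negative cells. Both YFP-negative libraries were far above both YFP-positive ones. The alpha chain H2-Aa had 2.72 FPKM in treated YFP-positive cells, 2.31 in treated YFP-negative cells and 5.05 in untreated YFP-negative cells, and was listed at 0 in untreated YFP-positive cells. Its partner H2-Ab1 had 0.465 FPKM in treated YFP-positive cells and 13.6 FPKM in untreated YFP-negative cells, and was listed at 0 in both sparse libraries. The E genes were above 0 in untreated YFP-negative cells alone, where H2-Ea-ps, the E alpha gene whose promoter is deleted in C57BL/6 mice, had 8.95 FPKM from 116 fragments and the beta chain H2-Eb1 had 2.65 FPKM from 84. H2-DMa, the alpha chain of the peptide exchange molecule H2-DM, had 8.51 FPKM from 957 fragments in treated YFP-positive cells and 3.88 FPKM from 122 in untreated YFP-negative cells, and was listed at 0 in the sparse libraries. The A and E chains summed to 3.18 FPKM in treated YFP-positive cells, 0 in untreated YFP-positive cells, 2.31 in treated YFP-negative cells and 30.3 in untreated YFP-negative cells. Cd74 was therefore 109 times the chain sum in treated YFP-negative cells, against 3.04 times in untreated YFP-negative cells, and 1.08 times in treated YFP-positive cells. In treated YFP-negative cells that sum is H2-Aa alone, from 16 fragments, with the other chains listed at 0 in a sparse library, so the ratio there is uncertain.

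**Figure D3:**
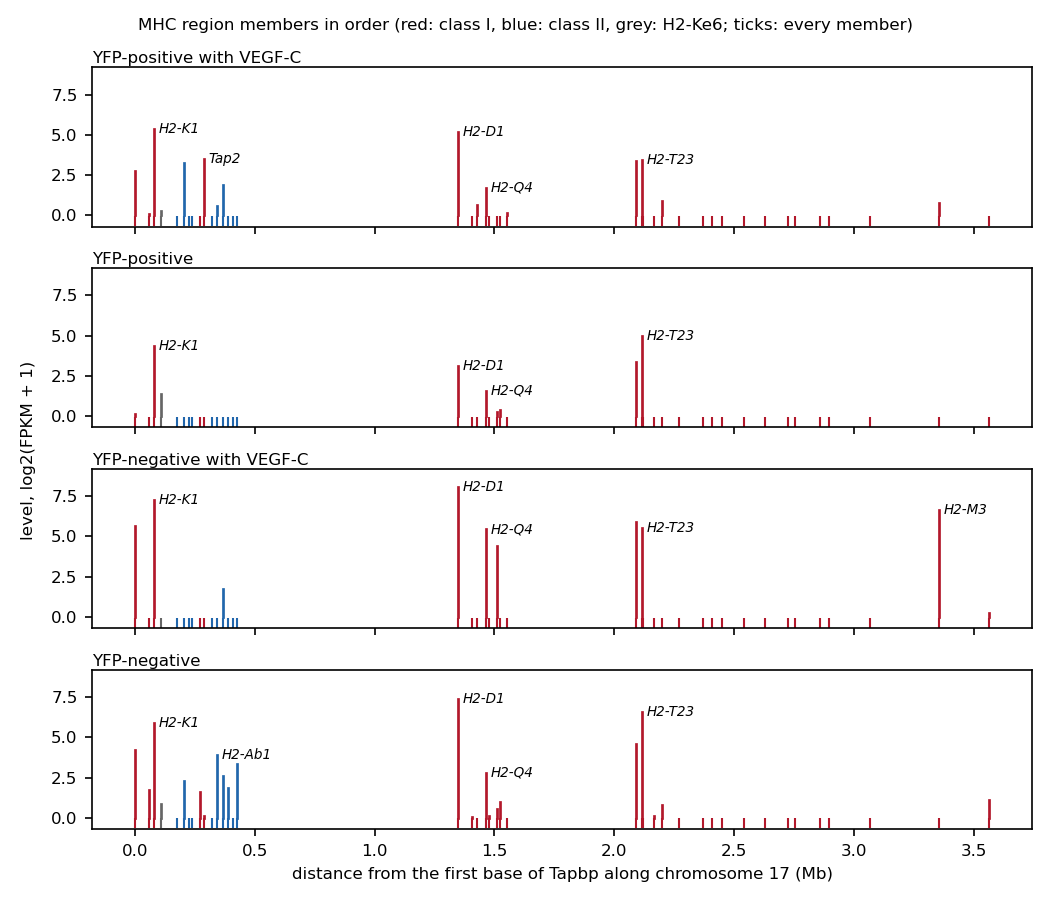
Level of each member on chromosome 17, as log2(FPKM + 1) on the vertical axis, by distance from the first base of Tapbp (Mb, horizontal axis), in the 4 libraries; ticks mark every member. The measured A and E chain genes of class II, in the first 0.5 Mb, are highest in untreated YFP-negative cells, H2-DMa in treated YFP-positive cells, and H2-M3 near the other end in treated YFP-negative cells.

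The first comparison set YFP-positive against YFP-negative cells, to ask how the reporter sort divides gene expression. Class I heavy chain RNA and Cd74 were lower in YFP-positive cells. In such bulk samples, fewer cells of a type and less RNA per cell cannot be told apart. Between the untreated libraries, the summed heavy chain level was 68.7 FPKM in YFP-positive cells and 358 in YFP-negative cells, which is 5.22-fold lower, and between the treated libraries it was 102 and 693 FPKM, 6.78-fold lower. Differences of single genes are given as log2((FPKM + 1)/(FPKM + 1)), a scale that shrinks the change of genes near 0, and genes at 1 FPKM or more in either library were counted at 2-fold or more on that scale. Without VEGF-C, 10 of 11 measured class I members were lower in YFP-positive cells and none was higher, while over 11265 measured genes 46.7% were lower and 30.1% higher. The class I median was -1.58 on the log2 scale, beside -0.66 for all genes. With VEGF-C, 9 of 11 were lower and 2 higher, while 27.6% of 11229 genes were lower and 47% higher, and the class I median was -2.54 beside 0.69 for all genes. The class I share below YFP-negative cells thus exceeded that of all genes in both comparisons, although the median of all genes lay on opposite sides of 0. Re-centred on that median, 3 class I members were 2-fold lower without VEGF-C and 9 with it, and H2-K1 and H2-T23 then stood at -0.93 and -0.94 without VEGF-C. Leaving out genes listed at 0 in either library, 6 of 7 class I members were lower without VEGF-C. Their median was then -1.59, beside 0.18 for all genes limited in the same way. The shares of all genes given above were neither re-centred nor limited in this way, so they do not match these counts.

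The genes lower in YFP-positive cells in both comparisons were H2-K1, H2-D1, H2-Q4, H2-T23, H2-T24 and Tapbp. These are 6 of the 7 class I members measured in both, against 15.2% of 9725 genes, and the 2 comparisons share no library. H2-K1 was 3.11-fold lower without VEGF-C (2.69 to 3.62) and 3.86-fold lower with it (3.65 to 4.08). H2-D1 was 22.3-fold lower without VEGF-C (18.0 to 28.0) and 7.89-fold lower with it (7.53 to 8.26). H2-T23 was 3.09-fold lower without VEGF-C (2.71 to 3.54) and 4.48-fold lower with it (3.96 to 5.05). How the 2 comparisons ranked for these genes depended on the scaling. Re-centred on the median of all genes, H2-D1 stood at -3.65 on the log2 scale without VEGF-C and -3.64 with it. Without VEGF-C, Tapbp then stood at -3.39, while H2-K1 (-0.93), H2-Q4 (-0.57), H2-T23 (-0.94) and H2-T24 (-0.59) fell short of 2-fold. Under upper-quartile scaling, H2-K1 stood at -1.88 without VEGF-C and -1.57 with it, and H2-T23 at -1.89 and -1.72. By level, Tapbp was 159-fold lower without VEGF-C (43.9 to 1314), which rests on 2 fragments in untreated YFP-positive cells, and its log2 difference of -4.05 was smaller than that of H2-D1 at -4.31. With VEGF-C, Tapbp was 8.92-fold lower (8.17 to 9.73). B2m was 1.56-fold lower without VEGF-C (1.47 to 1.66), which did not reach the 2-fold mark, and 5.09-fold lower with it (4.93 to 5.26). Without VEGF-C, B2m came to 0.02 on the log2 scale when re-centred and to -0.94 under upper-quartile scaling. With VEGF-C, H2-Q6 and H2-M3 were lower too, H2-M3 by 140-fold (109 to 183). The 2 class I genes higher in treated YFP-positive cells were H2-T9 and Tap2, both listed at 0 in the YFP-negative library.

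Of class II, Cd74 was lower in both comparisons and H2-DMa ran in opposite directions. Without VEGF-C, all 6 measured class II members were lower in YFP-positive cells, with a median of -2.96, but 5 of them were listed at 0 there. Of all measured genes, 46.7% were lower without VEGF-C and 27.6% with it. Cd74 was 138-fold lower (59.2 to 427) without VEGF-C and 73.4-fold lower (64.6 to 83.5) with it. With VEGF-C, 3 class II members were measured, of which Cd74 was lower, H2-DMa was higher against a value listed at 0, and H2-Aa differed by 0.16 on the log2 scale. H2-Ke2, an older name of the prefoldin subunit gene Pfdn6, stood at 194 FPKM in treated YFP-positive cells, 105 in untreated YFP-positive cells, 157 in treated YFP-negative cells and 156 in untreated YFP-negative cells, and did not reach 2-fold in any comparison. H2-Ke6, an older name of the fatty acid metabolism gene Hsd17b8, had 0.183, 1.58, 0 and 0.774 FPKM in these libraries.

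**Figure D4:**
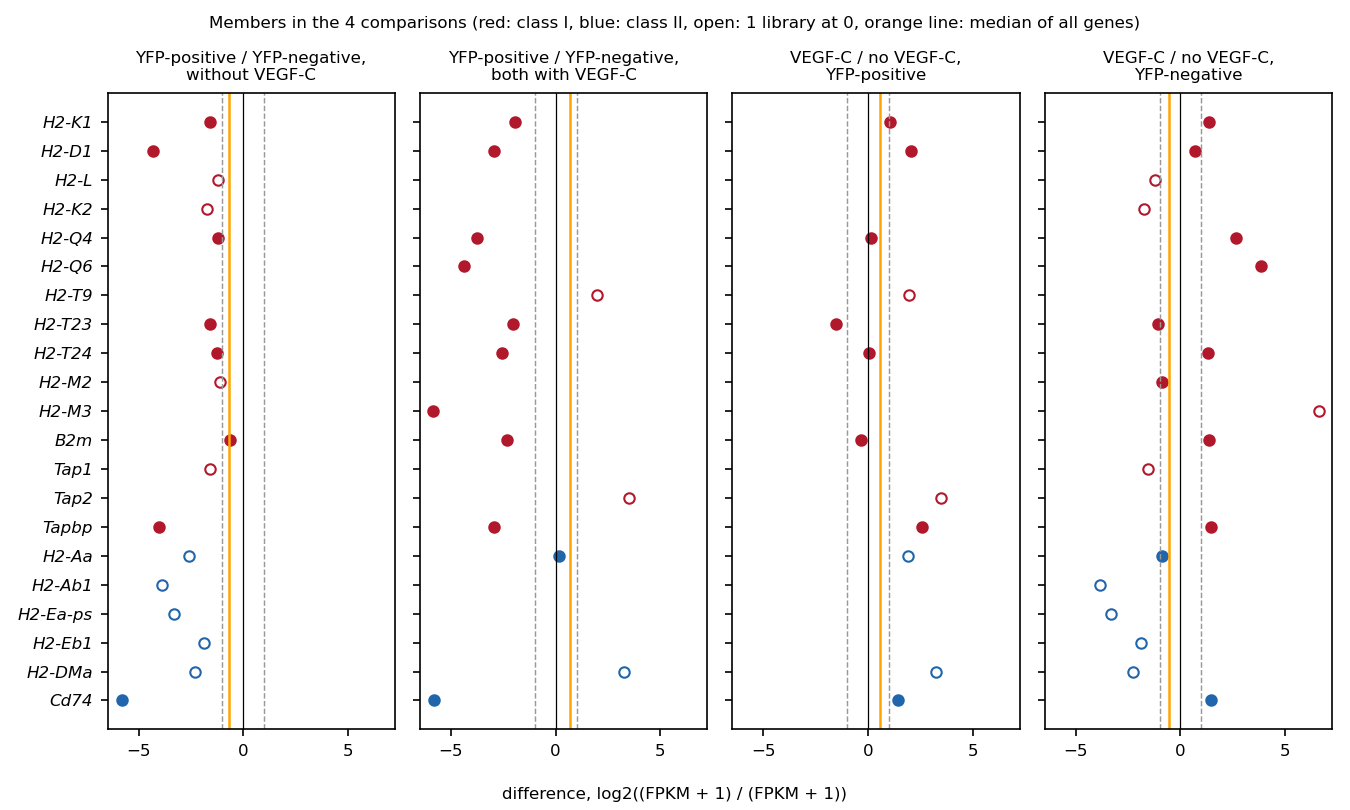
Difference of each measured class I (red) and class II (blue) member in the 4 comparisons, as log2((FPKM + 1)/(FPKM + 1)), with open circles where 1 library is listed at 0, dashed lines at 2-fold and the median of all genes in orange. In both YFP comparisons most class I members lie left of the median of all genes, which is -0.66 without VEGF-C and 0.69 with it.

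Because each comparison joins a sparse with a gene-rich library, the sorts were also compared within each kind of library, at the cost of unmatched VEGF-C treatment. These pairs were chosen after seeing the data. Between the gene-rich libraries, treated YFP-positive and untreated YFP-negative, 8 of 13 measured class I members were lower and 2 higher, while 25.8% of genes were lower and 26.8% higher. The class I median was -1.10 beside 0.05 for all genes, and H2-K1 and B2m did not reach 2-fold. Between the sparse libraries, untreated YFP-positive and treated YFP-negative, 8 of 9 class I members were lower and none higher, while 37.6% of genes were lower and 39.7% higher, with a class I median of -3.88 beside 0.08. Without re-centring, H2-D1, H2-Q4, H2-T24, Tapbp and Cd74 were lower in YFP-positive cells in all 4 pairings of the libraries, and H2-T23 was lower in all but the sparse pair.

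Markers of microglia and macrophages, the resident cells known for both MHC classes in brain, differed in the same direction. The 16 markers summed to 36.4 FPKM in treated YFP-positive cells, 88.0 in untreated YFP-positive cells, 2303 in treated YFP-negative cells and 517 in untreated YFP-negative cells. Of the 14 measured without VEGF-C, 13 were lower in YFP-positive cells when untreated, and of the 10 measured with VEGF-C all 10 were, while the defining markers P2ry12 and Tmem119 were at 0 in all 4 libraries. In untreated YFP-positive cells, 79.6 of the 88.0 FPKM came from Fcer1g, and in treated YFP-positive cells 26.8 of the 36.4 FPKM came from the lysosomal gene Cd68. Per 100 FPKM of these markers, Cd74 stood at 9.41 FPKM in treated YFP-positive cells, 0.756 in untreated YFP-positive cells, 10.9 in treated YFP-negative cells and 17.8 in untreated YFP-negative cells. The heavy chain sum per 100 FPKM of the markers was 281, 78.1, 30.1 and 69.3 FPKM in the same libraries. Relative to these markers, Cd74 thus ranged from 0.756 to 17.8 FPKM over the 4 libraries and the heavy chain sum from 30.1 to 281 FPKM. In each YFP-positive library these ratios rest largely on 1 marker, Fcer1g or Cd68. Oligodendrocyte markers were also lower in YFP-positive cells, 8 of 8 in both comparisons. The part of these cell types in the MHC differences was not tested.

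**Figure D5:**
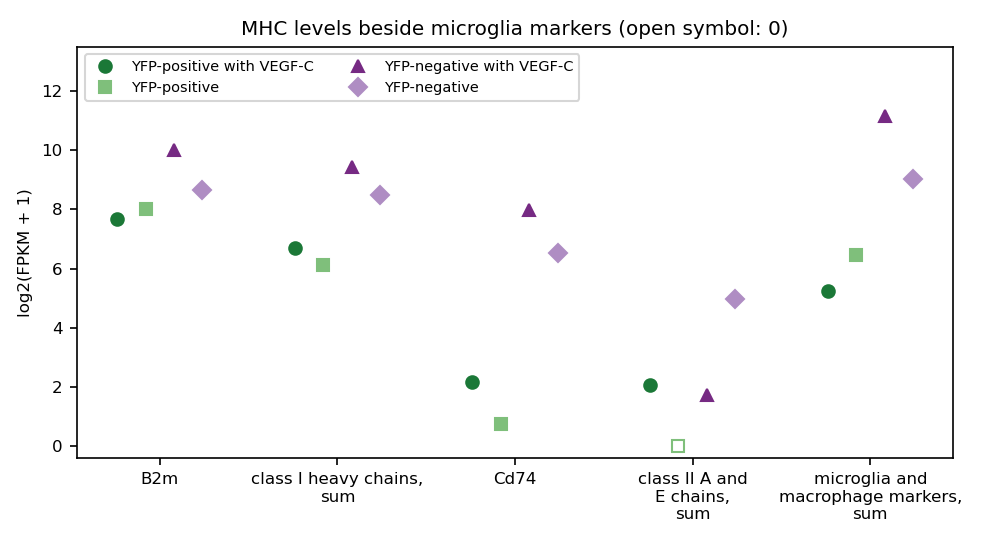
Levels of B2m, the class I heavy chain sum, Cd74, the sum of class II A and E chains and the sum of 16 microglia and macrophage markers in the 4 libraries, as log2(FPKM + 1) on the vertical axis. B2m, the heavy chain sum, Cd74 and the marker sum are highest in treated YFP-negative cells, where the markers reach 2303 FPKM, while the class II chain sum is highest in untreated YFP-negative cells at 30.3 FPKM.

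Other immune cell types gave low or scattered marker values. The 5 T cell markers summed to at most 0.582 FPKM in any library. Of 5 B cell markers, Cd79b alone passed 1 FPKM, with 6.68 FPKM in treated YFP-positive cells, 145 FPKM in untreated YFP-positive cells and 0 in both YFP-negative libraries, while Ms4a1 was at 0 throughout. The 7 dendritic cell markers summed to 4.73, 37.9, 8.13 and 0.916 FPKM in treated YFP-positive cells, untreated YFP-positive cells, treated YFP-negative cells and untreated YFP-negative cells, and 37.6 of the 37.9 FPKM came from Zbtb46. The 8 endothelial markers summed to 5.63, 0.479, 1.83 and 10.8 FPKM. The part of these cell types in the MHC differences was not tested either.

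The second comparison set VEGF-C against no VEGF-C within each sort, to ask what the growth factor changes in the cells. It shares its libraries with the first, so its values are not independent of those above. In YFP-positive cells, 5 of 9 measured class I members were higher with VEGF-C and 1 lower, while 45.5% of 11040 genes were higher and 26.3% lower. The class I median was 1.03 on the log2 scale beside 0.59 for all genes. H2-D1 was 4.60-fold higher (3.71 to 5.79), H2-K1 2.10-fold higher (1.82 to 2.43) and H2-T23 3.06-fold lower (2.65 to 3.53) with VEGF-C. Tapbp was 51.3-fold higher (14.2 to 424) but from 2 fragments without VEGF-C, and H2-T9 and Tap2 were higher against values listed at 0. H2-Q4, H2-T24 and B2m did not reach 2-fold. All 3 measured class II members, H2-Aa, H2-DMa and Cd74, were higher with VEGF-C, the first 2 against values listed at 0, and Cd74 was 5.15-fold higher (2.18 to 16.0) from 5 fragments without VEGF-C.

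In YFP-negative cells, 7 of 13 measured class I members were higher with VEGF-C and 4 lower, while 25.3% of 10968 genes were higher and 45.3% lower. The class I median was 1.33 beside -0.54 for all genes. Re-centred on that median, 8 members were higher and 2 lower, whereas the shares of all genes given here were not re-centred. B2m was 2.60-fold higher with VEGF-C (2.50 to 2.69). H2-K1 was 2.60-fold higher (2.43 to 2.78), and H2-T24 (2.58-fold, 2.36 to 2.83) and Tapbp (2.88-fold, 2.63 to 3.15) stood close to it. These 4 genes had overlapping counting intervals with at least 1 of the others, whereas H2-Q4 was 7.17-fold higher (6.09 to 8.46) and H2-Q6 42.6-fold higher (20.97 to 101). H2-M3 was also higher, against a value listed at 0. H2-D1 was 1.63-fold higher (1.56 to 1.70) and so did not reach 2-fold. H2-T23 was 2.12-fold lower (1.90 to 2.36), and H2-L, H2-K2 and Tap1 were listed at 0 with VEGF-C. Of 6 measured class II members, Cd74 was higher, 2.73-fold (2.57 to 2.90), while H2-Ab1, H2-Ea-ps, H2-Eb1 and H2-DMa were lower and listed at 0 with VEGF-C, and H2-Aa was 2.18-fold lower (1.28 to 3.97) by level and under 2-fold on the log2 scale. The summed microglia and macrophage markers were 2303 FPKM with VEGF-C and 517 FPKM without it in these cells. Of 14 such markers 8 were higher, among them Fcer1g at 930 FPKM with VEGF-C and 123 FPKM without it, and 4 were lower, among them the complement gene C1qb at 0.437 FPKM with VEGF-C and 61.2 FPKM without it. The part of these cells in the class I and Cd74 differences was not tested.

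The 2 VEGF-C comparisons share no library with each other. H2-K1 and Tapbp, 2 of the 7 class I members measured in both, were higher with VEGF-C in both, as was Cd74, and 10.9% of 9239 genes were. H2-T23 was lower in both, as were 937 of the 9239 genes. H2-DMa was higher with VEGF-C in YFP-positive cells and lower in YFP-negative cells, and 28.2% of genes were likewise called in opposite directions. When each comparison was re-centred on the median of all genes, H2-K1 in YFP-positive cells came to 0.44 and H2-T23 in YFP-negative cells to -0.53 on the log2 scale, so neither then reached 2-fold.

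The other antigen presentation genes did not share one direction. A list of 45 genes held proteasome subunits, chaperones, lysosomal proteases, transcription factors, the interferon gamma pathway, MHC-related molecules and costimulators. Without VEGF-C, 8 of 33 measured genes were higher and 16 lower in YFP-positive cells, with a median of -0.89, and with VEGF-C 17 of 36 were higher and 13 lower (median 0.31). In both comparisons these shares lay near those of all genes. With VEGF-C, 16 of 33 were higher and 8 lower in YFP-positive cells, and 10 of 37 were higher and 18 lower in YFP-negative cells, with medians of 0.56 and -0.34, again near those of all genes. Of the 6 class II processing enzymes, 3 of 5 measured were lower and none higher in untreated YFP-positive cells, and 5 of 6 were lower and 1 higher in treated ones. Of the 17 genes of MHC transcription and interferon gamma signalling, 5 of 13 measured were higher and 6 lower in untreated YFP-positive cells, and 10 of 15 were higher and 3 lower in treated ones. Over all measured genes, 30.1% were higher and 46.7% lower in untreated YFP-positive cells, and 47% were higher and 27.6% lower in treated ones. All genes thus moved toward higher between these comparisons too.

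The genes with the largest differences on this list were each under 1 FPKM in at least 1 sparse library. Psmb10, a subunit of the immunoproteasome that makes peptides for class I, had 20.1 FPKM in treated YFP-positive cells, 0.127 in untreated YFP-positive cells, 0.119 in treated YFP-negative cells and 29.4 in untreated YFP-negative cells. Psmb8, another of its subunits, had 3.24, 0.266, 0 and 29.5 FPKM, and Nfyb, a subunit of the factor that binds the CCAAT box, had 26.5, 0.118, 4.68 and 32.9 FPKM in the same libraries. All 3 were higher in untreated YFP-negative cells than in either sparse library. Nfyc, another subunit of that factor, had 38.4 FPKM in treated YFP-positive cells, 73.6 in untreated YFP-positive cells, 0.532 in treated YFP-negative cells and 25.5 in untreated YFP-negative cells. Ctss, the lysosomal protease that cleaves the invariant chain, had 6.48, 0.236, 56.9 and 57.9 FPKM, which is the division of Cd74 by sort. The remaining 3 were Ifi30, a lysosomal thiol reductase, with 5.00, 0.344, 128 and 0.0582 FPKM, Lgmn, a lysosomal protease, with 12.3, 0.248, 5.38 and 32.4 FPKM, and the costimulator Cd86, listed at 0 in both YFP-positive libraries and at 18.5 FPKM in treated and 23.7 FPKM in untreated YFP-negative cells.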

How the data were processed

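RNA was sequenced from 4 libraries, 1 for each combination of YFP sort and VEGF-C treatment. Per the labels' protocols, libraries came from the SMARTer Ultra Low kit and were read as 75-base pairs. Per the submitters' processing notes, Cufflinks 2.1.1 (Cuffdiff), SAMtools 0.1.18, Bowtie2 2.1.0 and TopHat2 2.0.9 were used, with mm10 named as the build. The sources used here do not give the annotation version. The authors deposited FPKM per gene and library, and, per the file headers, a second table of normalized counts, read as a signal since it holds fractions. Per library, 99.0% to 99.6% of its values below 2000 steps came within 0.05 of a multiple of 1 step, and dividing by the step gave implied fragments. The mapping was unstranded per the labels, so overlapping and antisense genes cannot be told apart.

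From these values were computed log2 ratios with a pseudocount of 1 FPKM, counts at 2-fold among genes of at least 1 FPKM, exact counting intervals and sums. Rows whose 27 symbols had become dates were left out. No p-value was computed, since each group has 1 library. Every member at 1 FPKM or more in a library is named, with the 3 other antigen presentation genes of largest difference in each comparison. Ratio counting was tested on simulated data. Positions came from GENCODE M21 and promoter windows from RefSeq. Members and lists were chosen with earlier results of these data known. The 9 alternatives planned and the 2 added after seeing the data are given in the closing section. Python 3.11.15, pandas 2.3.3, NumPy 2.4.6, SciPy 1.17.1 and matplotlib 3.10.9 were used.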

Additional observations from a re-analysis of the deposited data

Results flagged for a closer look

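H2-DMa, the alpha chain of the class II peptide exchange molecule H2-DM, was singled out because its differences ran in opposite directions under the same contrast. YFP-positive against YFP-negative cells gave -2.29 on the log2 scale without VEGF-C and 3.25 with it, and VEGF-C against no VEGF-C gave 3.25 in YFP-positive cells and -2.29 in YFP-negative cells. All 4 values rest on 8.51 FPKM in treated YFP-positive cells and 3.88 FPKM in untreated YFP-negative cells, since the gene was listed at 0 in untreated YFP-positive and treated YFP-negative cells. Each group has 1 library, so the difference between the contrasts was not tested, and 24.5% of genes measured in both YFP comparisons and 28.2% of those measured in both VEGF-C comparisons were also called in opposite directions.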

How the results depend on the processing

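The 16 counts of class I and class II members called higher or lower were recomputed under 9 other settings and, for the YFP comparisons, 2 pairings chosen after seeing the data. Of the resulting values 123 stayed within 1.5 times the reported count and 37 did not. The 123 include the 16 values without a filter, and counts that were 0 under both settings. Dropping the filter could move no count, since genes under 1 FPKM in both libraries cannot reach 2-fold with a pseudocount of 1 FPKM. A pseudocount of 0.1 FPKM and upper-quartile scaling moved no count beyond 1.5 times. Upper-quartile scaling did move the median of all genes. It came to -0.93 and 1.02 in the YFP comparisons without and with VEGF-C, and to 0.91 and -0.87 in the VEGF-C comparisons of YFP-positive and YFP-negative cells. Re-centring on that median left 3 class I members lower without VEGF-C in the YFP comparison and 2 lower with VEGF-C in YFP-negative cells, where 8 were then higher. Leaving out genes listed at 0 gave, without VEGF-C, 6 class I and 1 class II members lower in YFP-positive cells and, with VEGF-C, 0 of either class higher; it gave 3 class I and 1 class II members higher with VEGF-C in YFP-positive cells, and 1 class I and 0 class II members lower in YFP-negative cells. A pseudocount of 5 gave 4 class I members lower without VEGF-C and 1 higher with it in the YFP comparisons, 3 class I and 1 class II higher with VEGF-C in YFP-positive cells, and 1 class I and 2 class II lower in YFP-negative cells. A minimum of 5 FPKM gave 6, 1, 1, 1 and 2 for class I lower and class I higher in the YFP comparisons, class II higher in YFP-positive cells, and class I and class II lower with VEGF-C in YFP-negative cells. At 4-fold, 2 class I members were lower without VEGF-C and 1 higher with it in the YFP comparisons; with VEGF-C, 3 class I and 1 class II were higher and 0 class I lower in YFP-positive cells, and 3 class I and 0 class II were higher and 0 class I lower in YFP-negative cells. The normalized count table gave 7 class I members lower with VEGF-C in YFP-negative cells. The gene-rich pair gave 2 class I and 0 class II members higher and 4 class II lower, and the sparse pair 0 of either class higher and 2 class II lower. Leaving out genes and stricter limits lower these counts by construction; for the other settings the cause was not tested. Of the differences of single members, 187 moved beyond counting error, 153 did not, and no difference of 2-fold or more changed sign. No paired analysis was possible because the labels give no replicate numbers and each group has 1 library. Depth limits the sparse libraries most, where 3 fragments of Cd74 would give 0.399 FPKM in YFP-positive cells.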
